A study of Mus musculus with 15 samples.

Results

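A set of 10 genes was described in the corpus callosum of mice, the myelinated fibre bundle linking both hemispheres: Ms4a6b, Ms4a6c, Ms4a6d, Ms4a7, Mrc1, Cd163, Lyve1, Stab1, Pf4 and F13a1. They were chosen by symbol as genes of brain border macrophages and of the Ms4a family, and all 10 were found among the 33321 genes of the deposited count table. After 2 kinds of focal injury on day 4 they showed unlike patterns. Stab1 and Ms4a6d passed the test after lysophosphatidylcholine against the saline site, but not against the opposite side. Both calls were lost when certain single libraries were left out. In the other model these genes were also higher than at the saline site, at log2 fold changes of 1.49 and 2.35, without passing the test. Ms4a6b, Ms4a6c and Ms4a7 had fold changes above 1 in both models without passing it. Mrc1, Cd163, Lyve1, Pf4 and F13a1 passed it nowhere.

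RNA had been sequenced in 15 libraries, 3 per group. LPC_Ipsil is callosal tissue at the site of a lysophosphatidylcholine (LPC) injection, a detergent-like lipid that strips myelin, and LNIO_Ipsil is tissue at the site of an injection of L-NIO, an inhibitor of nitric oxide synthase that the labels tie to a model they abbreviate WMS. LPC_Contra and LNIO_Contra are the opposite sides of those brains, and Sham_Ipsil is the site of a saline injection in sham-operated mice. The labels give day 4 for injured and contralateral tissue and no separate day for sham, and they state no strain, sex or age. Whether a group's 3 libraries stem from different animals is not stated, so the p-values reflect library-to-library spread that may be technical.

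Macrophages at the borders of the brain lie in the meninges, the perivascular spaces and the choroid plexus, outside the parenchyma that microglia occupy. In mice at rest they are told from microglia by the mannose receptor CD206 (Mrc1), the haemoglobin scavenger receptor CD163, the hyaluronan receptor LYVE1, platelet factor 4 (Pf4), the coagulation transglutaminase subunit F13a1, the scavenger receptor stabilin-1 (Stab1) and MS4A7. The MS4A proteins are small membrane proteins that cross the membrane 4 times, and their genes lie side by side in 1 cluster. None of these genes is fixed to 1 cell type: blood monocytes, macrophages derived from them, and microglia after injury can take up several, platelets carry Pf4, and lymphatic vessels carry Lyve1.

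Ms4a6b and Ms4a6c are next to each other in that cluster and are close paralogs, so the starts of both genes are shown first. The windows are RefSeq sequences on build GRCm38.p6, chr19:11518309-11518608 and chr19:11469118-11469417, plus strand, and run from 250 bases before the annotated gene start to 50 after it. Capitals mark the stretches of at least 12 bases that both windows hold exactly.
Ms4a6b: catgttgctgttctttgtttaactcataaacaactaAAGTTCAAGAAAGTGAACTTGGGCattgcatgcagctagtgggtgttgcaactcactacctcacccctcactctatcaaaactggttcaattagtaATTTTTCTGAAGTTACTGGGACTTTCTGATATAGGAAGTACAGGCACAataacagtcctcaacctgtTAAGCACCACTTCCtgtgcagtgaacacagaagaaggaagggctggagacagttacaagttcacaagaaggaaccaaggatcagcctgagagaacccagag
Ms4a6c: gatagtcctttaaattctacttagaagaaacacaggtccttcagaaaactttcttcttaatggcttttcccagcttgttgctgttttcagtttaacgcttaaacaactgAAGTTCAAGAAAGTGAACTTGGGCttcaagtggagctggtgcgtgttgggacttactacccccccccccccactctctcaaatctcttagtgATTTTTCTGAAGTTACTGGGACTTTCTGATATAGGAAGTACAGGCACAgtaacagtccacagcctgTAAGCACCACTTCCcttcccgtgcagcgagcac
The windows aligned over 234 columns, 193 of them identical (82.5%), and shared 3 exact stretches of up to 48 bases, 86 bases in all. The shared block lies further upstream of the annotated start in Ms4a6b than in Ms4a6c. The longest stretch holds AGGAAGT, which is bases -86 to -80 in Ms4a6b and -17 to -11 in Ms4a6c, counting -1 as the last base before the start. AGGAAGT, read on both strands, is the core that ETS factors such as PU.1 bind together with flanking bases. It was found in 5 of the 10 windows at hand for 8 of the genes, and in 9.35% of 32851 windows of the same length over all genes. No window was at hand for Ms4a6d and Lyve1, so neither was searched for motifs. The windows holding it were those of Ms4a6b, Ms4a6c, Mrc1 and Pf4 and 1 of the 2 windows of F13a1. GAAANNGAA, the repeat bound by interferon regulatory factors, was found on either strand in 4 of the 10 windows, against 8.56% of all windows. Those 4 were the windows of Ms4a6b and Ms4a6c and both windows of Ms4a7. Neither motif was found in the window of Stab1. The motifs were chosen after the sequences had been seen, and a match is a description of letters only. Reads shared by the Ms4a6 paralogs may have been split or dropped by the counting, so the single values of these genes are uncertain.

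Library totals ran from 14896445 to 20916606 counts and 19786 to 20696 genes were detected per library. Mbp, the myelin basic protein gene that marks this tissue, was between 559 and 1091 FPKM in every library. All 10 genes passed the low-count filter (a CPM of about 0.557 in at least 3 libraries), but not on equal terms. Ms4a7 reached that level in 5 of 6 injured libraries and 1 of 9 others, Ms4a6c in 6 of 6 injured and 2 of 9 others, and Pf4 in 3 of 6 injured and 1 of 9 others. These 3 were thus tested largely because of the groups in which they were high. Counts of called or separated genes that include them are partly set by that filter. Lyve1 and Pf4 were counted 1 to 18 and 3 to 24 times per library, and Ms4a6c and Ms4a7 were as rare in sham, with 23 and 22 counts summed over the 3 libraries, so all 4 carry a large counting error. LPC_Ipsil replicate 3 stood apart from the other 2 LPC_Ipsil libraries. Its homeostatic microglial genes summed to 141 FPKM, against 717 and 522 FPKM in LPC_Ipsil replicates 1 and 2, and its choroid plexus genes (Ttr, Folr1, Kl, Clic6, Aqp1, Kcne2) to 404 FPKM, against 52.7 and 30.9 FPKM. The choroid plexus sum also ranged widely in Sham_Ipsil, between 22.1 and 1046 FPKM, and its part in the results was not tested. Results on LPC_Ipsil are given with and without its replicate 3. That library was singled out after its values were seen, and it was the lowest LPC_Ipsil library for the 4 Ms4a genes and Stab1. Calls made without it therefore describe how far the results depend on it, and are not separate evidence.

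**Figure D1:**
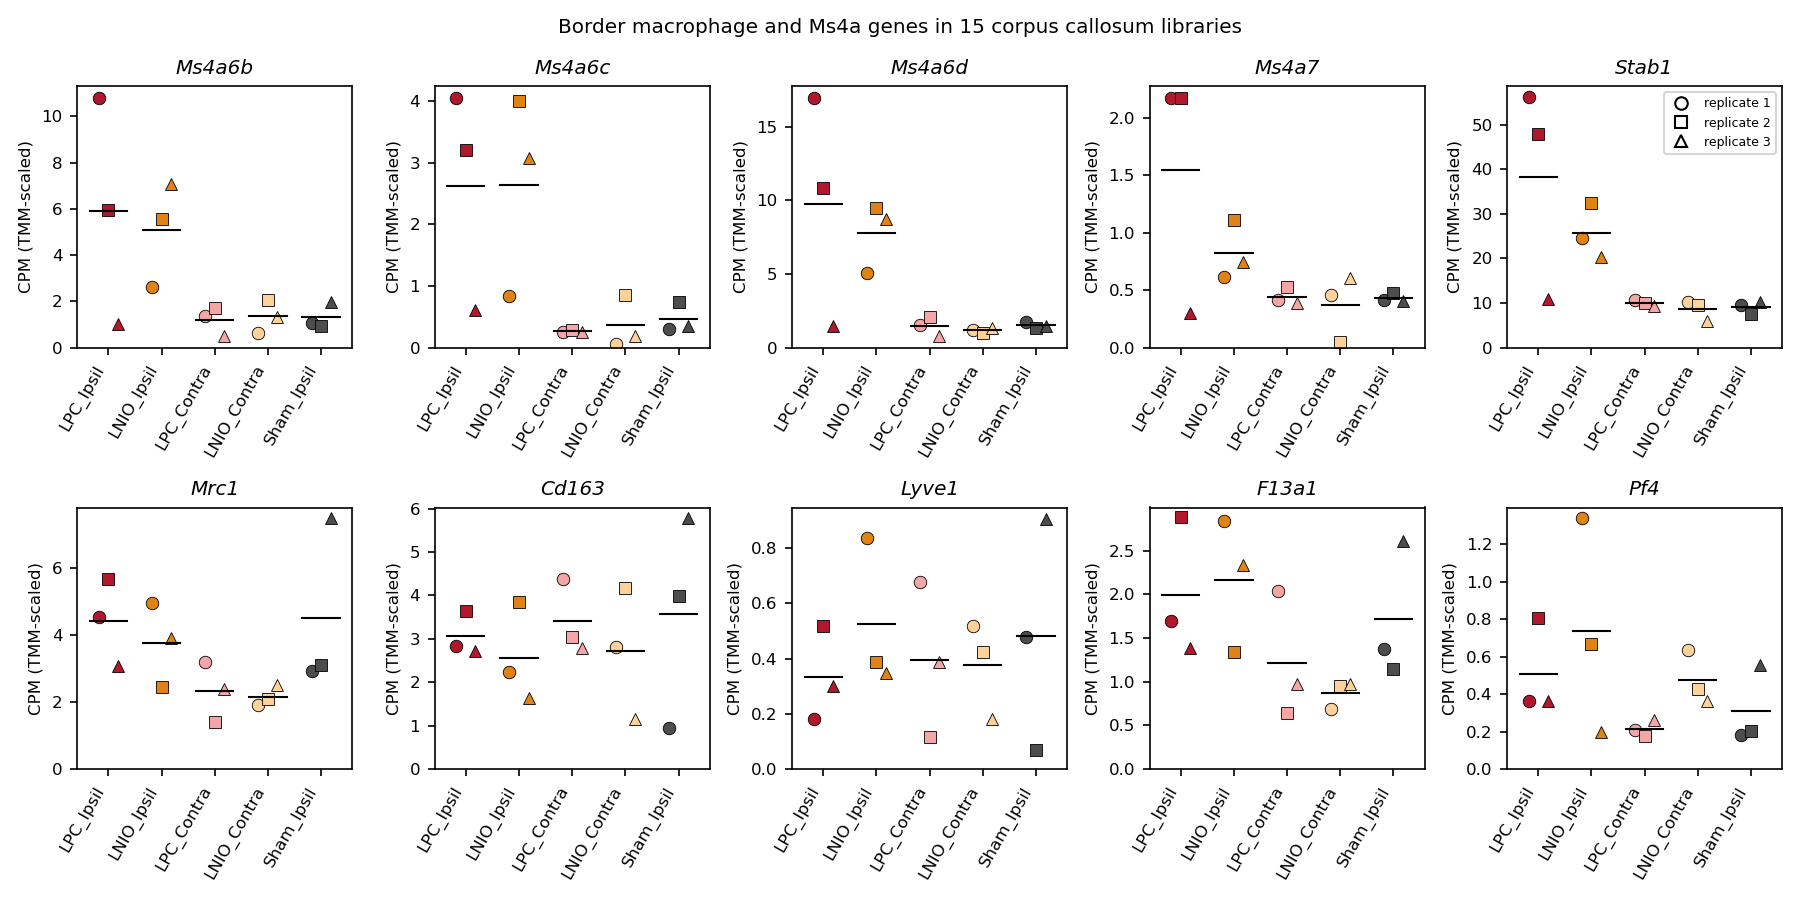
Expression of the 10 genes in CPM (TMM-scaled, linear axes from 0) in each of 15 libraries, with a bar at the mean of each group's 3 libraries and 1 symbol per replicate number. The upper row shows the 4 Ms4a genes and Stab1, in which LPC_Ipsil replicate 3 (triangle) lies among the sham and contralateral libraries or, for Stab1, just above them. The 4 Ms4a genes thus overlap sham in LPC_Ipsil but not in LNIO_Ipsil. The lower row shows the 5 genes whose injured and sham libraries overlap in both models.

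Of the Ms4a genes, Ms4a6d was the most abundant. It was counted at 17.0, 10.8 and 1.45 CPM in the 3 LPC_Ipsil libraries (replicates 1 to 3), at 5.07, 9.51 and 8.73 CPM in the LNIO_Ipsil libraries, at 1.51, 2.10 and 0.778 CPM in LPC_Contra, at 1.21, 0.993 and 1.34 CPM in LNIO_Contra, and at 1.73, 1.35 and 1.46 CPM in Sham_Ipsil. All LNIO_Ipsil libraries and 2 of 3 LPC_Ipsil libraries were above every uninjured library, and LPC_Ipsil replicate 3 was within the sham range. In LPC_Ipsil against Sham_Ipsil the log2 fold change of Ms4a6d was 2.68 ± 0.62 (SE, edgeR quasi-likelihood test, adjusted p = 0.0280), a 6.41-fold increase.

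Ms4a6b had 10.8, 5.95 and 1.03 CPM in LPC_Ipsil, 2.62, 5.56 and 7.09 CPM in LNIO_Ipsil, 1.36, 1.69 and 0.519 CPM in LPC_Contra, 0.633, 2.08 and 1.34 CPM in LNIO_Contra, and 1.08, 0.947 and 1.96 CPM in Sham_Ipsil. Ms4a6c had 4.04, 3.21 and 0.605 CPM in LPC_Ipsil, 0.835, 4.00 and 3.07 CPM in LNIO_Ipsil, 0.261, 0.292 and 0.259 CPM in LPC_Contra, 0.0576, 0.851 and 0.183 CPM in LNIO_Contra, and 0.299, 0.744 and 0.352 CPM in Sham_Ipsil. LPC_Ipsil replicates 1 and 2 and LNIO_Ipsil replicates 2 and 3 were the highest 4 libraries for both genes, as for Ms4a6d. LNIO_Ipsil replicate 1 was the lowest of its group for all 3, and for Ms4a6c it was below LNIO_Contra replicate 2. In LPC_Ipsil against Sham_Ipsil neither passed the test, with log2 fold changes of 2.14 ± 0.69 for Ms4a6b (adjusted p = 0.0922) and 2.51 ± 0.79 for Ms4a6c (adjusted p = 0.0834).

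Ms4a7, a marker of border and monocyte-derived macrophages, was the least abundant of the 4 in FPKM in each group. It had 2.17, 2.17 and 0.302 CPM in LPC_Ipsil, 0.613, 1.11 and 0.744 CPM in LNIO_Ipsil, 0.417, 0.525 and 0.389 CPM in LPC_Contra, 0.461, 0.0473 and 0.610 CPM in LNIO_Contra, and 0.418, 0.473 and 0.402 CPM in Sham_Ipsil. LPC_Ipsil replicates 1 and 2 stood well above the rest, and the LNIO_Ipsil libraries lay just above the sham libraries. Its log2 fold change in LPC_Ipsil against Sham_Ipsil was 1.84 ± 0.67 (adjusted p = 0.131).

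Reads on the rest of the Ms4a cluster were few. RefSeq places 21 Ms4a genes in a row on chromosome 19, and 5 of them had no count in any library. Of the 17 that are not among the 10 genes described, 16 had at most 12 counts summed over the 3 libraries of any group. The exception was Ms4a4c, which lies next to Ms4a4b and Ms4a4a and was chosen for mention after its values were seen. It was counted 13, 10 and 2 times in LPC_Ipsil, 3, 25 and 34 times in LNIO_Ipsil, 2, 1 and 0 times in LPC_Contra, 0, 3 and 0 times in LNIO_Contra, and 2, 1 and 5 times in Sham_Ipsil. The 2 highest libraries for Ms4a4c were both LNIO_Ipsil, unlike Ms4a6b, Ms4a6d and Ms4a7, but its log2 fold change of 2.78 ± 0.90 in LNIO_Ipsil against Sham_Ipsil did not pass the test (adjusted p = 0.314). Ms4a1, which encodes the B cell antigen CD20, had 3 counts in LPC_Ipsil, 8 in LNIO_Ipsil and 1 in Sham_Ipsil.

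**Figure D2:**
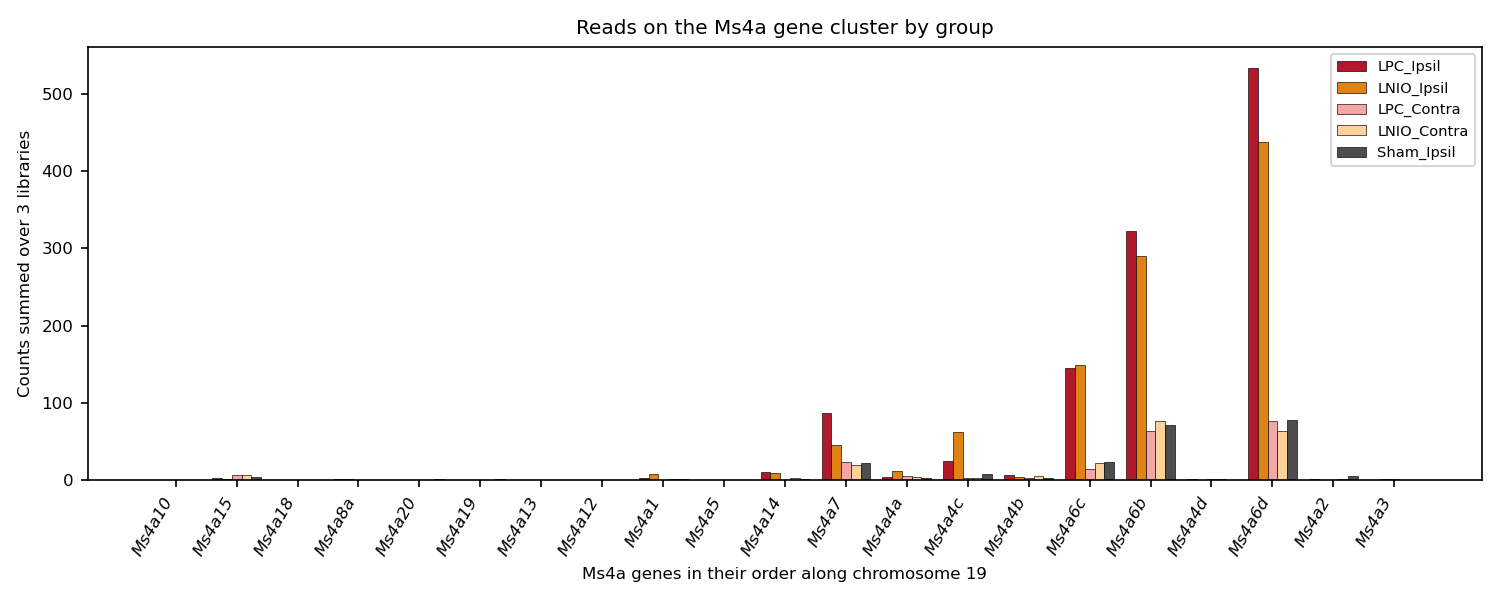
Counts on the 21 Ms4a genes in their order along chromosome 19, each bar the sum over the 3 libraries of a group (linear axis from 0). Reads gathered on Ms4a7, Ms4a6c, Ms4a6b and Ms4a6d, with 534 counts of Ms4a6d in LPC_Ipsil, 438 in LNIO_Ipsil and 78 in Sham_Ipsil, while Ms4a4c was the only other gene above 12 counts in any group.

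Among the 4 scavenger and lectin receptors, Stab1 alone was called in LPC_Ipsil against Sham_Ipsil. Stabilin-1, a multidomain receptor that takes up modified lipoproteins and apoptotic cells, had 56.1, 47.9 and 11.0 CPM in LPC_Ipsil, 24.5, 32.5 and 20.3 CPM in LNIO_Ipsil, 10.6, 9.98 and 9.34 CPM in LPC_Contra, 10.2, 9.50 and 6.03 CPM in LNIO_Contra, and 9.57, 7.57 and 10.3 CPM in Sham_Ipsil. All 6 injured libraries were above all 9 others, though LPC_Ipsil replicate 3 only just, at 11.0 CPM against 10.6 CPM in LPC_Contra replicate 1. The share of all genes with that separation was not counted, so it cannot be read as particular to Stab1. The log2 fold change in LPC_Ipsil against Sham_Ipsil was 2.06 ± 0.43 (adjusted p = 0.0243), a 4.18-fold increase. Stab2, its paralog on liver and lymphatic sinus endothelium, had 0.724, 0.756 and 0.786 CPM in LPC_Ipsil, 0.724, 0.890 and 1.69 CPM in LNIO_Ipsil, and 1.61, 0.676 and 1.06 CPM in Sham_Ipsil, with all 3 groups overlapping.

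Mrc1 had 4.53, 5.67 and 3.08 CPM in LPC_Ipsil, 4.96, 2.45 and 3.92 CPM in LNIO_Ipsil, 3.18, 1.40 and 2.40 CPM in LPC_Contra, 1.90, 2.08 and 2.50 CPM in LNIO_Contra, and 2.93, 3.11 and 7.49 CPM in Sham_Ipsil. Sham_Ipsil replicate 3 was the highest library of all, and the 2 injured groups lay within the sham range apart from LNIO_Ipsil replicate 2, which was below it. The log2 fold change was -0.03 ± 0.39 in LPC_Ipsil against Sham_Ipsil, with a 95% interval of -0.87 to 0.81, and -0.27 ± 0.39 in LNIO_Ipsil, with an interval of -1.11 to 0.58. Without Sham_Ipsil replicate 3 the signs turned, to 0.50 in LPC_Ipsil and 0.30 in LNIO_Ipsil.

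Cd163, which takes up haptoglobin-haemoglobin complexes, had 2.84, 3.64 and 2.72 CPM in LPC_Ipsil, 2.23, 3.84 and 1.64 CPM in LNIO_Ipsil, 4.38, 3.03 and 2.79 CPM in LPC_Contra, 2.82, 4.16 and 1.16 CPM in LNIO_Contra, and 0.957, 3.99 and 5.78 CPM in Sham_Ipsil. The sham libraries alone spanned the whole range of the injured ones. The log2 fold change was -0.22 ± 0.53 in LPC_Ipsil (95% interval -1.36 to 0.91) and -0.49 ± 0.53 in LNIO_Ipsil (-1.63 to 0.66), and without Sham_Ipsil replicate 3 it was 0.28 and 0.04. In the same libraries the haem-degrading enzyme Hmox1 rose 1.53 ± 0.41 on the log2 scale in LPC_Ipsil against Sham_Ipsil (adjusted p = 0.0474), and the ferritin light chain gene Ftl1 rose 1.64 ± 0.44 (adjusted p = 0.0496). The other 6 tested genes of the haem clearance list did not pass. With LPC_Ipsil replicate 3 left out, 2 of 9 were called higher in LPC_Ipsil and 1 of 9 in LNIO_Ipsil, Hmox1 (0.97 ± 0.24, adjusted p = 0.0470). Red blood cell genes summed to 279 to 342 FPKM in LPC_Ipsil, 264 to 437 FPKM in LNIO_Ipsil and 225 to 346 FPKM in Sham_Ipsil.

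Lyve1 was rare everywhere, with 3, 11 and 5 counts in LPC_Ipsil, 15, 7 and 7 in LNIO_Ipsil, 13, 2 and 6 in LPC_Contra, 9, 9 and 3 in LNIO_Contra, and 8, 1 and 18 in Sham_Ipsil. Its log2 fold change was -0.54 ± 0.74 in LPC_Ipsil and 0.05 ± 0.71 in LNIO_Ipsil. The 95% intervals, -2.12 to 1.03 and -1.46 to 1.57, spanned more than a 2-fold difference in both directions. None of the 5 tested lymphatic endothelial genes passed the test in either model against sham with all 15 libraries, and 1 of 5, Pdpn, did in LPC_Ipsil without its replicate 3.

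Of the 2 secreted factors, F13a1 had 1.69, 2.88 and 1.39 CPM in LPC_Ipsil, 2.84, 1.33 and 2.33 CPM in LNIO_Ipsil, 2.03, 0.642 and 0.972 CPM in LPC_Contra, 0.691, 0.946 and 0.975 CPM in LNIO_Contra, and 1.37, 1.15 and 2.62 CPM in Sham_Ipsil. The injured groups overlapped sham. All LNIO_Contra libraries were below sham, as they were for Mrc1 and Ms4a6d, and the share of all genes that did so is not given here. Pf4, a chemokine that platelets and border macrophages release, had 6, 17 and 6 counts in LPC_Ipsil, 24, 12 and 4 in LNIO_Ipsil, 4, 3 and 4 in LPC_Contra, 11, 9 and 6 in LNIO_Contra, and 3, 3 and 11 in Sham_Ipsil. Its log2 fold change was 0.68 ± 0.65 in LPC_Ipsil (adjusted p = 0.616) and 1.16 ± 0.63 in LNIO_Ipsil (adjusted p = 0.651). The platelet chemokine gene Ppbp, which neighbours Pf4, had its most counts where Pf4 did in 2 groups, with 18 in LNIO_Ipsil replicate 1 and 15 in Sham_Ipsil replicate 3, against 0 to 8 in the other 13 libraries. The part of platelets in the Pf4 values was not tested.

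**Figure D3:**
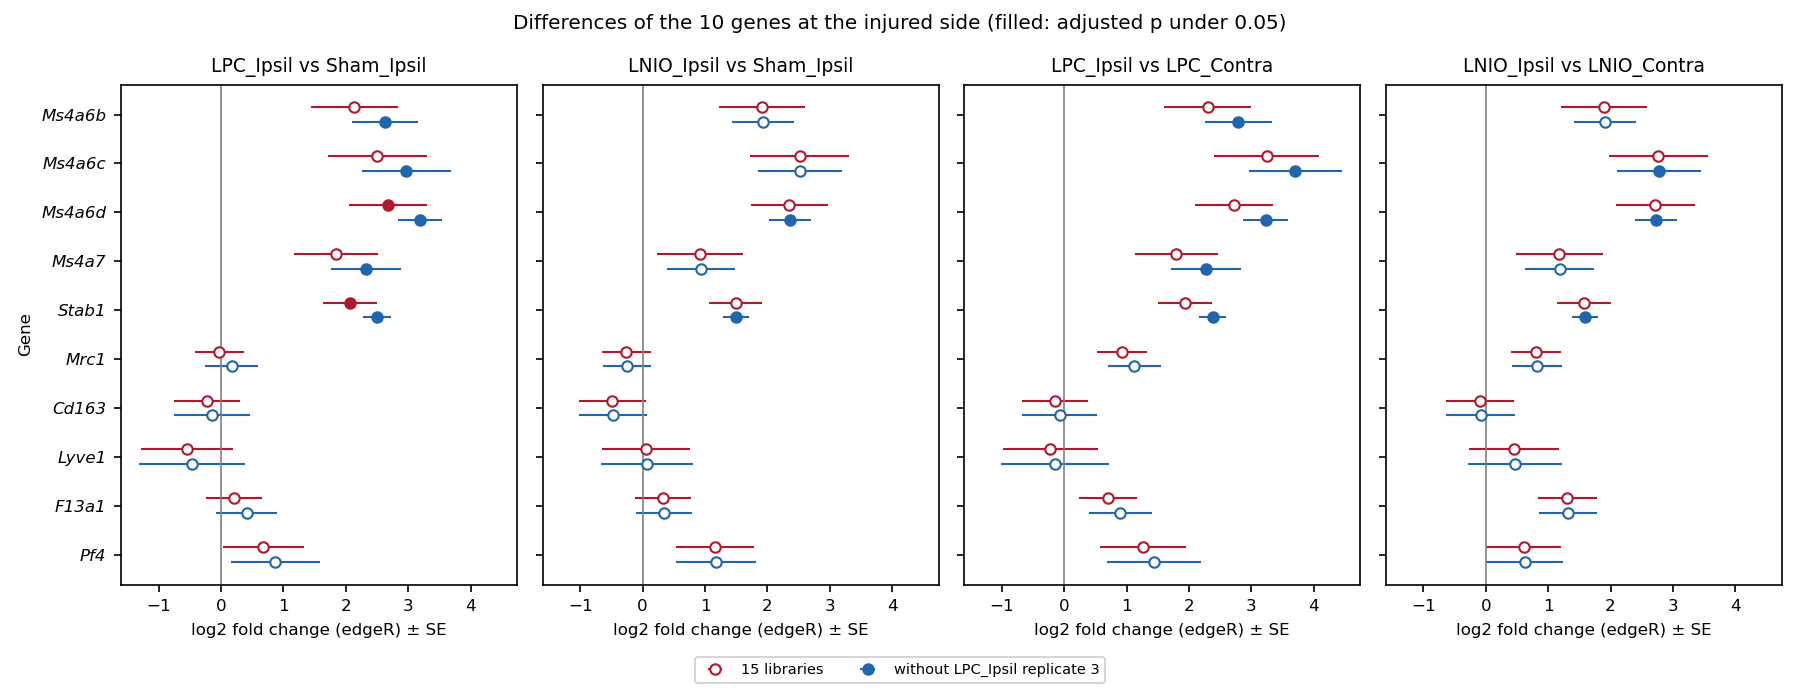
Log2 fold changes (edgeR) of the 10 genes with their standard errors in 4 comparisons, from 15 libraries (red) and without LPC_Ipsil replicate 3 (blue), filled where the adjusted p was under 0.05. The 4 Ms4a genes and Stab1 lie right of 0 in all 4 panels, and Mrc1 and Cd163 lie near 0 against sham.

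In LPC_Ipsil against Sham_Ipsil 2 of the 10 genes were called (Stab1 and Ms4a6d, both higher), where 5.19% of 16795 tested genes were called and 4.19% were called higher, and 20.2% had an unadjusted p under 0.05. The median log2 fold change was 1.26 over the 10 genes and 0.01 over all tested genes. Stab1 was the only one of the 10 whose 3 LPC_Ipsil libraries all lay above the sham libraries, which 14% of tested genes did. Both calls rested on 5 of the libraries. Leaving out LPC_Ipsil replicate 1 or 2, or any of the 3 Sham_Ipsil libraries, ended both: the adjusted p of Stab1 was then 0.136, 0.0785, 0.0649, 0.103 and 0.107, and that of Ms4a6d was 0.169, 0.0830, 0.0759, 0.116 and 0.118.

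Without LPC_Ipsil replicate 3, 5 of the 10 genes were called higher in LPC_Ipsil against Sham_Ipsil, where 9.62% of 17119 tested genes were called and 7.83% were called higher. Replicate 3 was the lowest LPC_Ipsil library for all 5 genes, so leaving it out raised their fold changes and lowered their SE. Stab1 then rose 2.50 ± 0.22 on the log2 scale (adjusted p = 5.82e-06), Ms4a6d 3.19 ± 0.36 (adjusted p = 3.11e-05), Ms4a6b 2.63 ± 0.54 (adjusted p = 0.00521), Ms4a6c 2.97 ± 0.71 (adjusted p = 0.0155) and Ms4a7 2.32 ± 0.56 (adjusted p = 0.0169). Mrc1 (0.17 ± 0.42), Cd163 (-0.15 ± 0.60), Lyve1 (-0.47 ± 0.85), F13a1 (0.41 ± 0.49) and Pf4 (0.87 ± 0.72) were not called.

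In LNIO_Ipsil against Sham_Ipsil 0 of the 10 genes and 0 of 16795 genes (0%) were called by edgeR, while 8.87% had an unadjusted p under 0.05. The log2 fold changes were 2.35 ± 0.62 for Ms4a6d, 2.51 ± 0.79 for Ms4a6c, 1.92 ± 0.69 for Ms4a6b, 1.49 ± 0.43 for Stab1 and 0.92 ± 0.69 for Ms4a7, with adjusted p between 0.263 and 0.777. All 3 LNIO_Ipsil libraries lay above all sham libraries for these 5 genes, as they did for 10.1% of tested genes. For Ms4a6c and Ms4a7, which passed the filter largely through injured libraries, that separation was partly built in. DESeq2 called 2 of the 10 higher, Ms4a6d (adjusted p = 0.0118) and Stab1 (adjusted p = 0.0237), where it called 1.41% of genes. Without LPC_Ipsil replicate 3, whose spread enters the shared estimate, edgeR called the same 2 genes, Ms4a6d (2.36 ± 0.33, adjusted p = 0.00135) and Stab1 (1.5 ± 0.21, adjusted p = 0.00116), where 2.32% of genes were called. Both models are set against the same 3 sham libraries.

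The opposite sides of the injured brains gave a second reference. In LPC_Ipsil against LPC_Contra 0 of the 10 genes and 0% of all genes were called by edgeR, with 12.1% at an unadjusted p under 0.05. The log2 fold changes were 3.25 ± 0.85 for Ms4a6c, 2.72 ± 0.62 for Ms4a6d, 2.30 ± 0.70 for Ms4a6b, 1.94 ± 0.43 for Stab1 and 1.80 ± 0.66 for Ms4a7, with adjusted p of 0.0629 to 0.242. DESeq2 called 4 of the 10, Ms4a6b, Ms4a6c, Ms4a6d and Stab1, where it called 4.17% of genes. Without LPC_Ipsil replicate 3 edgeR called 5, the 4 Ms4a genes and Stab1, where 5.55% of genes were called.

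In LNIO_Ipsil against LNIO_Contra 0 of the 10 genes and 0% of all genes were called with a mean per group, with 6.08% at an unadjusted p under 0.05. The log2 fold changes were 2.77 ± 0.80 for Ms4a6c, 2.72 ± 0.63 for Ms4a6d, 1.90 ± 0.69 for Ms4a6b, 1.58 ± 0.43 for Stab1 and 1.18 ± 0.70 for Ms4a7. DESeq2 called 3 (Ms4a6c, Ms4a6d and Stab1), where it called 1.04% of genes. Without LPC_Ipsil replicate 3 edgeR called the same 3, where 2.22% of genes were called, with adjusted p of 0.0479 for Ms4a6c, 0.000885 for Ms4a6d and 0.00121 for Stab1. Same-numbered LNIO libraries deviated together on the 2 sides, and a fit of those 6 libraries with the replicate number as a block called 4 of the 10 genes, where 4.22% of 16196 genes were called. Those were Stab1 (log2 fold change 1.60, adjusted p = 3.16e-06), Ms4a6d (2.70, adjusted p = 9.89e-06), Ms4a6c (2.92, adjusted p = 0.000543) and Ms4a6b (1.92, adjusted p = 0.00055), all higher on the injured side. This fit was chosen after seeing the data.

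Mrc1, F13a1 and Pf4 were higher on the injured than on the opposite side without passing the test in either model. The log2 difference of Pf4, a gene of few counts, was 1.26 ± 0.69 in LPC (adjusted p = 0.518) and 0.61 ± 0.60 in LNIO. Cd163 was at -0.15 and -0.09, and Lyve1 at -0.22 and 0.45. Mrc1 differed by 0.93 ± 0.40 on the log2 scale in LPC (adjusted p = 0.362) and 0.80 ± 0.41 in LNIO (adjusted p = 0.896), and F13a1 by 0.70 ± 0.46 (adjusted p = 0.623) and 1.31 ± 0.47 (adjusted p = 0.522). For F13a1 all LNIO_Ipsil libraries lay above all LNIO_Contra libraries, as they did for 7.91% of tested genes. Of the 10 genes, Stab1, Ms4a6b, Ms4a6d and Ms4a7 were separated in the same way, for Ms4a7 partly through the filter. Set against sham, Mrc1 was at -0.96 ± 0.41 in LPC_Contra (adjusted p = 0.500) and -1.07 ± 0.41 in LNIO_Contra (adjusted p = 1), and F13a1 at -0.49 ± 0.46 and -0.98 ± 0.47. Sham_Ipsil replicate 3 set much of this: without it Mrc1 was at -0.39 in LPC_Contra and -0.49 in LNIO_Contra, and F13a1 at -0.07 and -0.54. Of the 10 genes 0 were called in either contralateral group against sham, where 0.00595% of genes were called in LPC_Contra and 0% in LNIO_Contra, at unadjusted p under 0.05 for 9.67% and 2.72% of genes.

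The 2 injured groups were also compared directly, LNIO_Ipsil against LPC_Ipsil. None of the 10 genes and 0% of all genes were called by edgeR, with 8.39% at an unadjusted p under 0.05, and DESeq2 called 0 of the 10. The log2 fold change was -0.58 for Stab1 (95% interval -1.46 to 0.31), -0.92 for Ms4a7 (-2.24 to 0.40), -0.33 for Ms4a6d (-1.52 to 0.87), -0.22 for Ms4a6b (-1.59 to 1.15) and 0.01 for Ms4a6c (-1.46 to 1.48), intervals that hold both no difference and a difference of more than 2-fold. Without LPC_Ipsil replicate 3, Stab1 was lower in LNIO_Ipsil by edgeR, at -1.0 ± 0.22 (adjusted p = 0.0389), where 1.41% of genes were called, and the other 9 were not called. The difference between the models in the side difference was called for none of the 10 genes and for no other gene by edgeR (0% called, with 1.02% at an unadjusted p under 0.05).

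Levels between genes were compared per length, in FPKM. In Sham_Ipsil the order was Stab1 (0.836 ± 0.132, SD, n = 3), Ms4a6d (0.821 ± 0.114), Mrc1 (0.664 ± 0.378), Cd163 (0.613 ± 0.417), Pf4 (0.405 ± 0.271), Ms4a6b (0.278 ± 0.115), F13a1 (0.239 ± 0.109), Ms4a6c (0.213 ± 0.110), Lyve1 (0.156 ± 0.134) and Ms4a7 (0.0910 ± 0.00750). No 2 neighbours in that order differed beyond their spread. In LPC_Ipsil the order was led by Ms4a6d (5.24 ± 4.13 FPKM), Stab1 (3.49 ± 2.16), Ms4a6b (1.23 ± 0.996) and Ms4a6c (1.20 ± 0.81), and in LNIO_Ipsil by Ms4a6d (4.28 ± 1.39), Stab1 (2.37 ± 0.53), Ms4a6c (1.23 ± 0.76) and Ms4a6b (1.09 ± 0.52). Pf4 (0.669 ± 0.342 and 0.948 ± 0.717 FPKM), Mrc1 (0.655 ± 0.193 and 0.562 ± 0.181) and Cd163 (0.530 ± 0.092 and 0.444 ± 0.191) came next in LPC_Ipsil and LNIO_Ipsil.

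Microglial genes moved with the Ms4a genes and Stab1. In LPC_Ipsil against Sham_Ipsil 9 of 10 tested homeostatic microglial genes were called higher (median log2 fold change 1.78), among them the receptor genes Csf1r (2.40 ± 0.45, adjusted p = 0.0243) and Cx3cr1 (2.40 ± 0.45, adjusted p = 0.0243). Of 15 damage-associated microglial genes 12 were called higher (median 3.58), such as the lipid receptor gene Trem2 (3.57 ± 0.74, adjusted p = 0.0245) and the protease inhibitor gene Cst7 (6.95 ± 1.44, adjusted p = 0.0245). In LNIO_Ipsil against Sham_Ipsil 0 of either list were called, with medians of 1.17 and 2.63. Without LPC_Ipsil replicate 3, 10 of 10 homeostatic and 14 of 15 damage-associated genes were called higher in LPC_Ipsil against Sham_Ipsil (medians 2.2 and 4.12), and 8 of 10 and 12 of 15 in LNIO_Ipsil against Sham_Ipsil (medians 1.18 and 2.64).

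The summed level of the 4 Ms4a genes and Stab1 was 18.4, 13.6 and 2.40 FPKM in LPC_Ipsil, 5.90, 11.4 and 10.2 FPKM in LNIO_Ipsil, and 2.29, 2.05 and 2.38 FPKM in Sham_Ipsil. Homeostatic microglial genes summed to 717, 522 and 141 FPKM in LPC_Ipsil, 204, 263 and 320 FPKM in LNIO_Ipsil, and 128, 108 and 106 FPKM in Sham_Ipsil. Per 100 FPKM of homeostatic microglial genes the first sum was 2.57, 2.61 and 1.69 in LPC_Ipsil, 2.89, 4.32 and 3.18 in LNIO_Ipsil, and 1.79, 1.90 and 2.25 in Sham_Ipsil. The LPC_Ipsil and sham ratios overlapped, and all 3 LNIO_Ipsil libraries lay above both groups. The sum of Mrc1, Cd163, Lyve1, F13a1 and Pf4 per 100 FPKM of the same microglial genes was 0.262, 0.599 and 1.22 in LPC_Ipsil, 1.68, 0.837 and 0.513 in LNIO_Ipsil, and 0.928, 1.47 and 3.28 in Sham_Ipsil. LPC_Ipsil replicates 1 and 2 and LNIO_Ipsil replicate 3, the libraries with the most homeostatic microglial RNA, had the lowest ratios of all 15. The microglial sum is the divisor of that ratio, so low ratios in those libraries are partly built in. The genes were split into these 2 sums after their values were seen, so the sums are a description. In bulk tissue fewer cells of a type and less RNA per cell cannot be told apart, and the part of microglia in the Ms4a and Stab1 values was not tested.

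**Figure D4:**
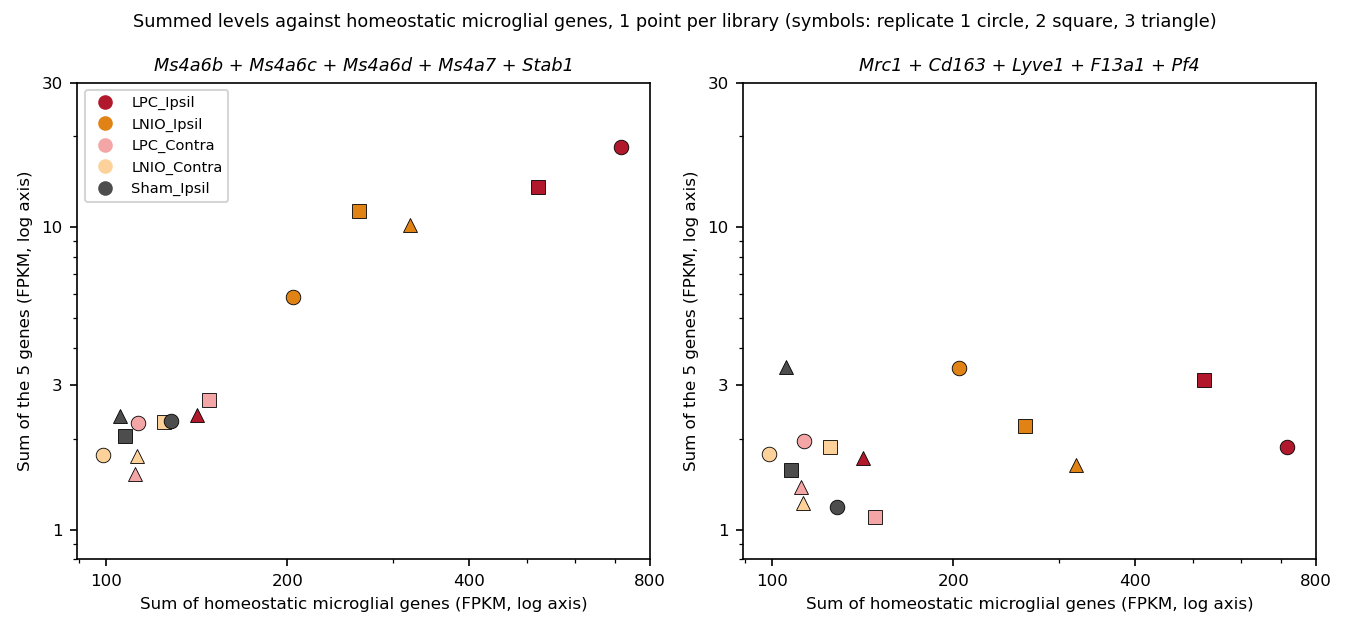
Summed FPKM of the 4 Ms4a genes and Stab1 (left) and of Mrc1, Cd163, Lyve1, F13a1 and Pf4 (right) against the summed FPKM of homeostatic microglial genes, 1 point per library, both axes logarithmic, color for the group. On the left the sums rise with the microglial sum, to 18.4 FPKM at 717 FPKM in LPC_Ipsil replicate 1, and on the right the highest sums, 3.46 FPKM in Sham_Ipsil replicate 3 and 3.44 FPKM in LNIO_Ipsil replicate 1, sit at low or middle microglial levels, and the next, 3.13 FPKM in LPC_Ipsil replicate 2, at 522 FPKM.

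Other genes used to tell border macrophages apart were mixed. Of 23 listed, 16 were tested, and 4 were called higher in LPC_Ipsil against Sham_Ipsil (median 0.66): the sialoadhesin gene Siglec1 (4.41 ± 1.03, adjusted p = 0.0291), the lysozyme gene Lyz2 (3.71 ± 0.92, adjusted p = 0.0382), the transcription factor gene Maf (1.33 ± 0.28, adjusted p = 0.0243) and the iron exporter gene Slc40a1 (0.88 ± 0.21, adjusted p = 0.0283). Siglec1 had 18.9, 6.85 and 0.605 CPM in LPC_Ipsil, 2.34, 12.8 and 7.49 CPM in LNIO_Ipsil, and 0.777, 0.0676 and 0.352 CPM in Sham_Ipsil. The lectin gene Clec10a (0.43 ± 0.54) and the carbonyl reductase gene Cbr2 (0.57 ± 0.52) were among the 12 not called, and both were chosen for mention after their values were seen. In LNIO_Ipsil against Sham_Ipsil 0 of the 16 were called (median 0.44). Of 18 tested without LPC_Ipsil replicate 3, 7 were called higher in LPC_Ipsil and 2 in LNIO_Ipsil.

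Of 10 tested family relatives of the genes, 3 were called higher in LPC_Ipsil against Sham_Ipsil: the hyaluronan receptor Cd44 (2.13 ± 0.40, adjusted p = 0.0243), the collagen receptor Mrc2 (2.48 ± 0.57, adjusted p = 0.0280) and Cd5l (4.39 ± 1.15, adjusted p = 0.0486), a secreted protein of the CD163 family. Mrc2, the paralog of Mrc1, had 48.8, 27.1 and 4.90 CPM in LPC_Ipsil, 10.1, 14.2 and 10.1 CPM in LNIO_Ipsil, and 3.17, 4.67 and 6.59 CPM in Sham_Ipsil. Its 2 high LPC_Ipsil libraries were thus far above sham where those of Mrc1 were within the sham range. The MS4A-related Tmem176b rose 1.30 ± 0.30 (adjusted p = 0.0263), and its neighbor Tmem176a (1.17 ± 0.35, adjusted p = 0.0694) and Ms4a4c did not pass. In LNIO_Ipsil against Sham_Ipsil 0 of either list were called. Leaving out LPC_Ipsil replicate 3, edgeR called 5 of 11 relatives and both Tmem176 genes higher in LPC_Ipsil, and 4 of 11 relatives and both Tmem176 genes in LNIO_Ipsil.

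Lists of markers were read for other cells that carry some of the 10 genes. Of 5 tested monocyte genes 1 was called higher in LPC_Ipsil, the lipopolysaccharide co-receptor Cd14 (3.02 ± 0.64, adjusted p = 0.0245), which microglia also express. Ccr2, the chemokine receptor of monocytes, had 3.20, 0.945 and 0.121 CPM in LPC_Ipsil, 0.334, 1.67 and 0.942 CPM in LNIO_Ipsil, and 0.837, 0.270 and 1.01 CPM in Sham_Ipsil, so the groups overlapped. The 10 monocyte genes summed to 9.43 to 34.3 FPKM in LPC_Ipsil, 12.6 to 20.1 FPKM in LNIO_Ipsil and 5.47 to 10.5 FPKM in Sham_Ipsil, with 1 to 4 of the 10 at 0 in each sham library, and their part in the Ms4a values was not tested. Of 6 monocyte genes tested without LPC_Ipsil replicate 3, 2 were called higher in LPC_Ipsil and 1 in LNIO_Ipsil. None of 2 platelet, 5 lymphatic, 8 blood endothelial, 8 fibroblast, 6 choroid plexus and 4 red blood cell genes tested was called in either injured group against sham with all 15 libraries. When LPC_Ipsil replicate 3 was left out, the lymphatic gene Pdpn (1.23 ± 0.23, adjusted p = 0.00259) and the endothelial junction gene Cldn5 (0.94 ± 0.27, adjusted p = 0.0399) were called higher in LPC_Ipsil. So was the B cell receptor gene Cd79b (4.35 ± 1.02, adjusted p = 0.0132), and none of these 3 was called in LNIO_Ipsil. Cd79b was not tested with all 15 libraries, where 0 of 5 B cell genes passed the low-count filter. Those 5 genes summed to only 0.451 to 0.851 FPKM in LPC_Ipsil and 0.0185 to 0.225 FPKM in Sham_Ipsil.

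The 3 genes closest to each of the 10 over the 15 libraries were found by the root mean square difference of log2 CPM centred on each gene's mean. For Ms4a6d they included Fcgr1 (0.31) and Fcer1g (0.32), genes of Fc receptors. Stab1 lay closest to Bin2 (0.22), Nckap1l (0.22) and Lcp2 (0.23), and Ms4a6b to Tlr7 (0.39), Plek (0.41) and Cd53 (0.43). Ms4a6c lay closest to Sp110 (0.57), Naip2 (0.57) and Tent5c (0.58), and Ms4a7 to Galns (0.46), Zfp69 (0.46) and Syk (0.48). The other 5 had other neighbors. F13a1 lay closest to Mrc1 (0.25), then Dcn (0.31) and Aldh1a2 (0.31). Mrc1 lay closest to Dcn (0.28), Cped1 (0.31) and Ddr2 (0.34), out of genes averaging 1 or more on the log2 CPM scale, which F13a1 did not reach. The points share depth and library, so these are descriptions.

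The matrix gene Dcn, decorin of fibroblasts, was among the closest to both Mrc1 and F13a1. It had 8.69, 19.6 and 8.22 CPM in LPC_Ipsil, 12, 6.84 and 11.5 CPM in LNIO_Ipsil, and 8.37, 7.10 and 17.3 CPM in Sham_Ipsil. Sham_Ipsil replicate 3 was the highest sham library for Dcn as it was for Mrc1, Cd163, Lyve1, F13a1 and Pf4, and also for Stab1 and Ms4a6b. Fibroblast genes as a list summed to 23.5 to 29.8 FPKM in LPC_Ipsil, 25.1 to 34.3 FPKM in LNIO_Ipsil and 15.2 to 36.4 FPKM in Sham_Ipsil, where replicate 2 and not replicate 3 (25.0 FPKM) was the highest. How much border tissue each dissection held was not tested. Cd163 lay closest to Kcnh4 (0.28), Chrm4 (0.33) and Cyp2s1 (0.34), Lyve1 to Slc6a20a (0.43), Gm20008 (0.47) and Cp (0.48), and Pf4 to C1s1 (0.42), Loxl1 (0.44) and Pkdcc (0.44).

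RefSeq annotates other genes that overlap some of the 10, and reads of those pairs cannot be told apart because the strand setting of the counting is not given in the sources used here. The overlaps are Ms4a6c with BE692007, Mrc1 with Mir511, Cd163 with Gm52877, Stab1 with Gm52148 and Nt5dc2, and F13a1 with Gm30240 and Gm30489.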

How the data were processed

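RNA was sequenced paired-end after ribosomal depletion and poly(A) purification, per the labels' protocols. The deposited counts are whole reads per gene symbol, and the authors' deposited FPKM scale them by gene length and depth. The tools were HISAT2 2.2.1 and R 4.4.2 and the build GRCm39, per the submitters' processing notes. How reads were counted is not given in the sources used here. 74 entries repeated a symbol.

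Counts were tested with edgeR 4.0.16 (R 4.3.3): TMM factors 0.966 to 1.06, filterByExpr by group (minimum count 10, total 15), a robust quasi-likelihood fit of 15 libraries with a mean per group, and Benjamini-Hochberg adjustment over 16795 genes. Genes were called at an adjusted p under 0.05. CPM are TMM-scaled, and each SE came from the log2 change and its F statistic. The fit was tested on simulated data. DESeq2 1.42.0 and limma 3.58.1 gave alternatives. Biopython 1.88 aligned the promoters.

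The genes and lists were chosen with earlier results of these data known. Named were all 10 genes, up to 4 genes per list with the smallest adjusted p in either injured group against sham, and the 3 closest genes to each. Stab2, Ppbp, Ccr2 and Ms4a1 were added after their values were seen. A few others under this rule are not reported here. Replicate pairs of a group differed, with a chi-square per degree of freedom of 10.1 to 63.7, so none looked like 1 library deposited again. Same-numbered LNIO libraries correlated on the 2 sides at 0.599, 0.356 and 0.249, and same-numbered LPC libraries at -0.0357, 0.165 and 0.334.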

Additional observations from a re-analysis of the deposited data

How the results depend on the processing

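Counts of 3 libraries per group set the precision, and Lyve1 and Pf4 were near the counting floor. In LPC_Ipsil against Sham_Ipsil, where 871 genes and 2 of the 10 were called, edgeR called 524 and 1 without a low-count filter, and 0 and 0 with only those 6 libraries. DESeq2 called 1511 and 4, and limma on log2(FPKM + 0.1) called 51 and 0. Leaving out a library gave 0 to 1646 genes and 0 to 5 of the 10, the highest without LPC_Ipsil replicate 3. In LNIO_Ipsil against Sham_Ipsil (0 and 0) DESeq2 called 236 genes and 2 of the 10, only the groups compared 378 and 2, no filter 1 gene and limma 1 gene; leaving out a library gave 0 to 398 genes and 0 to 2 of the 10. Between the LPC sides DESeq2 called 700 and 4, and leaving out a library gave 0 to 950 and 0 to 5. Between the LNIO sides DESeq2 called 175 and 3, only the groups compared 359 and 2, and leaving out a library gave 0 to 380 and 0 to 3. LNIO_Ipsil against LPC_Ipsil had 15 genes with DESeq2, 1 without a filter and 2 with limma, and 0 to 241 genes and 0 to 1 of the 10 leaving out a library. LPC_Contra against sham, with 1 gene, had 30 with DESeq2, 0 with only those groups, and 0 to 2 leaving out a library. LNIO_Contra against sham, with 0, had 1 without a filter, 2 with DESeq2, 3 with only those groups and 1 with limma. The cause of these differences was not tested.

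With the replicate block over all libraries 652 genes and 2 of the 10 were called in LPC_Ipsil against Sham_Ipsil, 1 gene each in LNIO_Ipsil and LNIO_Contra and 0 in LPC_Contra against sham. With the block over only the LNIO sides 684 genes and 4 of the 10 were called. Of the other block fits, 0 called any of the 10.

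The alternatives were followed for 44 chosen fold changes of the 10 genes, not for every gene in every comparison. Some near 0, such as that of Cd163 between the LNIO sides (-0.09), were left out. So were some further from 0, such as that of Ms4a6c in LPC_Contra against Sham_Ipsil (-0.74), and all differences between the models in the side difference. The count of sign turns below holds for the chosen set only. Of 963 values of those 44 under alternatives, 22 turned sign, none of them called. In LPC_Ipsil against Sham_Ipsil Mrc1 was 0.0571 with limma and 0.0586 with the block, and Cd163 0.0370 with limma. Leaving out 1 library moved Mrc1 between -0.2935 and 0.4967, Cd163 between -0.6661 and 0.2778, Lyve1 between -1.072 and 0.2183, and F13a1 between -0.1647 and 0.5991. In LNIO_Ipsil against Sham_Ipsil it moved Mrc1 between -0.4931 and 0.3003, Cd163 between -0.9244 and 0.0410, and Lyve1 between -0.4392 and 0.8511. In LNIO_Ipsil against LPC_Ipsil it moved Ms4a6b between -0.7000 and 0.5304, Ms4a6c between -0.4456 and 0.4621, and Ms4a6d between -0.8237 and 0.3293, while limma gave 0.137 for Ms4a6b and 0.196 for Ms4a6d, and the block -0.0223 for Ms4a6c. The Ms4a genes and Stab1 stayed above 0 in the injured groups against sham and against their opposite sides under every alternative run.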
